A study of Rattus norvegicus with 59 samples.

Results

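The zinc finger genes described here were the entries of a rat lung expression table whose names start with Zfp, Znf, Zscan, Zkscan or Zim, leaving out the RNA-binding Zfp36 family, and whose level reached 1 FPKM in at least 4 of 59 libraries. FPKM is the number of sequenced fragments set against the length of the transcript and the number of fragments mapped in that library. The table held 2887 complete entries, 72 of them with such a name, and 48 of those met the level rule. The rule used the level of expression and no comparison between groups. Each library was made from lung tissue of 1 rat, a Fischer 344 male bought at 3 months of age. The rats breathed air or crystalline silica at 15 mg/m3 in whole-body chambers for 6 hours a day on 5 days and their lungs were taken at 6 times afterwards, first at 1, 3 and 6 months, then at 9, 12 and 18 months. There were 5 rats in each of the 12 groups, except 4 in air at 9 months, giving 29 air and 30 silica libraries; no transgene or other agent was given.

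Most of these genes encode proteins that bind DNA through tandem fingers of the C2H2 type, in which paired cysteines and histidines hold a zinc ion. The largest class carries a KRAB domain, which recruits the co-repressor Trim28 (KAP1) and, through it, heterochromatin enzymes, and is known for silencing transposable elements. KRAB genes multiplied by local duplication and stand in clusters along mammalian chromosomes. Other members lack the KRAB domain and include the promoter activator Zfp143. By general knowledge, with no protein sequence examined, 27 members were taken as KRAB genes, 18 as genes without the domain, and 3 (Zfp40, Zfp53 and Zfp329) were not assigned.

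A feature not used to choose the members was found in their promoters. RefSeq promoter windows of the assembly GRCr8, from 250 bases before to 50 bases after the gene's start, were at hand for 43 members, and 38 of these had an unambiguous name. A pair of letter runs found in binding sites of Zfp143, ACTACA and then, after any 2 bases, TCC, occurred on either strand in 11 of the 38 windows (28.9%), against 52 of the 829 windows of tested genes (6.27%) and 540 of all 27457 windows (1.97%). The windows of tested genes include those of members and were matched by current symbol, without leaving out ambiguous names. The letters were chosen after the sequences had been seen, so the shares are a description. The stricter form, ACTACA followed at once by ATTCC and contained in the first, was found in 1 member window (2.63%), that of Zfp180, and in 0.724% of tested genes' windows. Of the windows of KRAB genes, 10 of 20 held the looser letters. Of those of genes without the domain, 1 of 16 did, that of Zfp444, and of the unassigned genes 0 of 2. The GC box GGGCGG, searched on both strands by itself, so that its matches can overlap the others by a few bases, was in 50% of member windows, 60.1% of tested genes' windows and 34.5% of all windows. The median GC content was 57%, against 59.3% and 52.3%.

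Of the 11 windows with the looser letters, all 4 of genes called for silica are shown, but only 1 of those of genes not called. The 250 bases before the start are shown for 5 KRAB genes whose windows hold those letters, 4 that were lower after silica (Zfp110, Zfp180, Zfp566 and Zfp606) and 1 that was not called (Zfp84). They are read 5′ to 3′ along the gene, with the match in capitals, and a match that starts with GGA and ends with TGTAGT is the same motif on the opposite strand. The windows are chr1:82517803-82518052 (plus strand) for Zfp110, chr1:88780092-88780341 (plus strand) for Zfp180, chr1:94460666-94460915 (minus strand) for Zfp566, chr1:82053940-82054189 (plus strand) for Zfp606 and chr1:94114573-94114822 (plus strand) for Zfp84, all in GRCr8.
Zfp110: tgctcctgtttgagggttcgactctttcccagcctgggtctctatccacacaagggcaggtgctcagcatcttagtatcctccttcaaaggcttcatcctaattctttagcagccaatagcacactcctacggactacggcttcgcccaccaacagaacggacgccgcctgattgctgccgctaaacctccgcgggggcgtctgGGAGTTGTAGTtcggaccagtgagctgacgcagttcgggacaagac
Zfp180: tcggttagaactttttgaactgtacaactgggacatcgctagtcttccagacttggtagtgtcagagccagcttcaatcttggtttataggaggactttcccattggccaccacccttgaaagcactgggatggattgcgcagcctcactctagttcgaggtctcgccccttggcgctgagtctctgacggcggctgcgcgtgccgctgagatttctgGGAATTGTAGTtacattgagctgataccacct
Zfp566: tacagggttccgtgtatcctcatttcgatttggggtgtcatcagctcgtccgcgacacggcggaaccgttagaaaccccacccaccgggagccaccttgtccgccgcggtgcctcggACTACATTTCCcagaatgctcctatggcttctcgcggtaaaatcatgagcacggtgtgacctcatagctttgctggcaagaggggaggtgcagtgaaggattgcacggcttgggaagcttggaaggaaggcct
Zfp606: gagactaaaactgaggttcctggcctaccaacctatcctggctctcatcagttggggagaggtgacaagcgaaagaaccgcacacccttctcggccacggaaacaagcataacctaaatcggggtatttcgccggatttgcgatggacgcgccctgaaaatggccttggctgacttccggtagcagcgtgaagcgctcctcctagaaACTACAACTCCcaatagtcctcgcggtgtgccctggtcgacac
Zfp84: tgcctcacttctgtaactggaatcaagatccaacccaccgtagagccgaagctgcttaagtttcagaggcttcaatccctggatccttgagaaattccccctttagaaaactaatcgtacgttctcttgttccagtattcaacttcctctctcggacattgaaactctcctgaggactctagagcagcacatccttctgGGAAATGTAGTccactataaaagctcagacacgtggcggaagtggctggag
The match ended 35 bases before the start in Zfp110, 21 in Zfp180, 122 in Zfp566, 32 in Zfp606 and 40 in Zfp84. A match is a run of letters and no evidence of binding.

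All members with a place in RefSeq, 47 of 48, lay on chromosome 1, as did nearly all entries of the table that RefSeq could place. At least 1 of the nearest coding neighbours was itself a zinc finger gene for 33 of the 47. Genes of near-identical sequence can share reads, so their levels are uncertain; how alike the members are was not measured. In 5 members (Zfp874b, Zfp772, Znf761, Zfp260 and Zfp51) the name itself can refer to more than 1 gene or a second entry of the table carries another name of the same gene.

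The table's FPKM summed to 12818 to 38613 per library. Much of that range lay in the entry LOC102553223. It ran from 4.00 FPKM (air at 3 months, replicate 5) to 25818 FPKM (air at 9 months, replicate 3). Without it the sums were 12025 to 16336. The depth relative to the other libraries, estimated from 261 low genes, ran from 0.432 to 2.26, with a median of 1.02 in air and 0.982 in silica. Correlations within groups ranged from 0.912 to 0.983 over 116 pairs of libraries, and no 2 libraries were identical. Markers moved with silica: in the mean over the 6 times 14 of 15 neutrophil and macrophage markers, 3 of 3 alveolar type 2 cell markers, 2 of 3 airway markers and 6 of 6 tested markers of dividing cells were higher, while 5 of 5 endothelial and 2 of 3 erythrocyte markers were lower. Of 5 T and NK cell markers 1 was higher and 2 lower, of 4 striated muscle markers 1 was lower, neither of 2 B cell markers was called, and no fibroblast marker was in the table. In the same mean, 37.5% of all 1278 tested genes were called higher and 20.1% lower. The markers were counted without scaling only. The library labelled silica at 12 months, replicate 3, stood apart. Its summed neutrophil and macrophage markers were 125 FPKM, against 239 to 329 in the other 4 libraries of its group and 124 to 177 in air. Its alveolar type 2, dividing cell and endothelial marker sums also lay within the air range. The main counts and unscaled differences at 12 months are given with and without it. Scaled values, fits under other settings and summed levels include it.

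The members were expressed at low to moderate levels. Their mean level over all libraries had a median of 2.35 FPKM, against 4.35 for the 1278 tested genes, which are all genes that met the same level rule. Of the 48, 41 lay below that median of all tested genes. Highest were Zfp110 at 11.1 ± 1.03 FPKM (SD, n = 59), Zfp710 at 6.90 ± 0.634 and Zfp646 at 6.75 ± 0.354. Zfp110 is also known as the neurotrophin receptor interacting factor NRIF. Its lowest library, at 8.99 FPKM, was above the highest library of Zfp710, at 8.22, whereas Zfp710 and Zfp646 overlapped widely. The lowest were Zfp382 at 0.992 ± 0.197, Zfp689 at 0.940 ± 0.170 and Zfp819 at 0.775 ± 0.164 FPKM, whose ranges also overlapped. In 37 members every library reached 1 FPKM. Just inside the rule were Zfp819 with 6 libraries at 1 FPKM or more, Zfp689 with 21, Zfp382 with 27 and Zfp628 with 37. Just outside were Zfp418, Zfp428 and Zfp668 with 1 such library each. The other 21 of the 24 names left out had none, among them the imprinted gene Zim1 at a mean of 0.02 FPKM.

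Silica was first compared with air as the mean of the differences at the 6 times, on the scale log2(FPKM + 0.5), with limma and Benjamini-Hochberg adjustment over all 1278 tested genes. A gene is called here at an adjusted p under 0.05, and all differences are given on this scale, which understates those of low genes. Of the 48 members, 23 were called (47.9%), 4 higher and 19 lower after silica, whereas 57.6% of all tested genes were called, 37.5% higher and 20.1% lower. Among the called members 82.6% were lower, against 34.9% among all called genes. The median difference was -0.04 over the members and 0.03 over all tested genes. Without scaling, changes were small: the 95% interval of the mean difference lay within ±0.25 in 44 of 48 members. The split depends on the scaling: with each library centred on its median, 3 members were higher and 27 lower, and with quantile normalization 3 and 25. Over all tested genes the split was 479 higher and 257 lower without such scaling, 338 and 429 with centring, and 312 and 448 with quantile normalization. The median difference of the members was -0.10 with centring and -0.07 with quantile normalization, beside -0.03 and -0.04 over all tested genes. How many intervals lay within ±0.25 was not counted with either scaling. In whole lung tissue, fewer cells of a type and less RNA per cell cannot be told apart, and the part of the marker changes given above in these values was not tested.

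**Figure D1:**
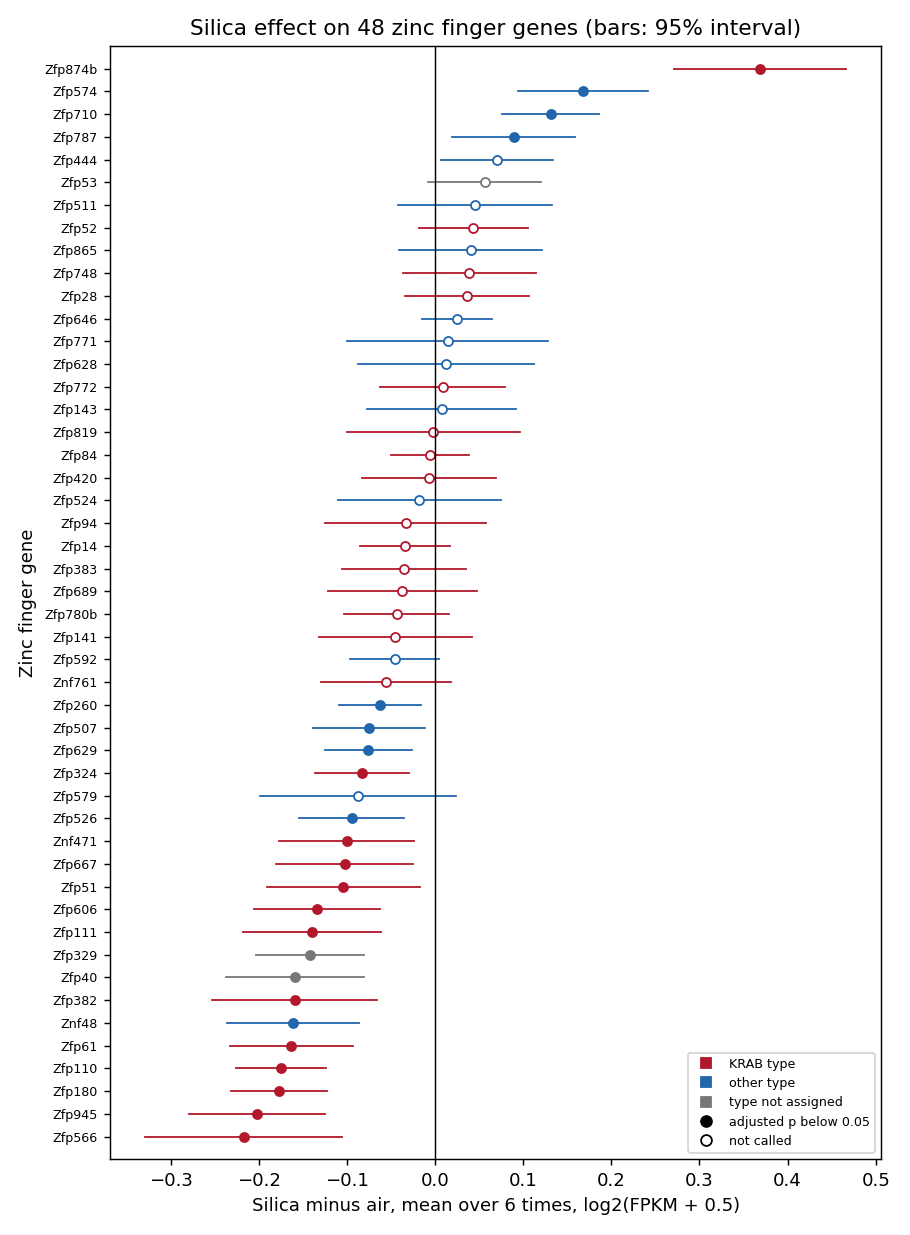
Difference between silica and air for each of the 48 zinc finger genes, as the mean over 6 times on the log2(FPKM + 0.5) scale (x axis), with 95% intervals as bars and genes in rows; colours give the type of gene and filled points the genes with an adjusted p below 0.05. Zfp874b at the top stands at 0.37, 3 further genes were higher, and 19 filled points lie left of zero.

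Of the 27 KRAB genes, 1 was higher (Zfp874b) and 12 were lower, with a median of -0.05. Of the 18 genes without the domain, 3 were higher (Zfp574, Zfp710 and Zfp787) and 5 lower, with a median of 0.01. Both classes moved down with scaling. With median centring the KRAB genes had 1 rise, 18 falls and a median of -0.11, and those without the domain 2 rises, 7 falls and a median of -0.05. With quantile normalization the KRAB genes had 1 rise, 15 falls and a median of -0.09, and those without it 2 rises, 8 falls and a median of -0.05. Both called unassigned genes, Zfp40 and Zfp329, were lower. No test of the difference between the classes was made. Among members with a zinc finger gene next to them, 2 of 33 were higher and 14 lower. Of the 14 without such a neighbour, 2 were higher and 5 lower. Of the 11 members with the looser Zfp143 letters in their promoter window, 4 were called, all lower, with a median of -0.03. Of the 27 windows without it, 11 belonged to genes called lower and 2 to genes called higher, with a median of -0.05. Beside these splits, 47.9% of all members and 57.6% of all tested genes were called. The splits by neighbour and by promoter letters were made without scaling and were not tested.

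Without scaling the falls were modest. Zfp566 fell by 0.22 ± 0.056 (SE, adjusted p = 0.000784), Zfp945 by 0.20 ± 0.039 (adjusted p = 1.32e-05), Zfp180 by 0.18 ± 0.027 (adjusted p = 2.27e-07) and Zfp110 by 0.18 ± 0.026 (adjusted p = 6.61e-08), all 4 KRAB genes. They were followed by Zfp61 (-0.16), Znf48 (-0.16), Zfp382 (-0.16), Zfp40 (-0.16), Zfp329 (-0.14) and Zfp111 (-0.14). Of these, Znf48 lacks a KRAB domain. The remaining 9 called falls ran from -0.13 in Zfp606 to -0.06 in Zfp260. Each of the 10 largest falls remained called after leaving out any 1 of the 59 libraries.

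Zfp110, the highest member, was measured in air at 12.8, 11.1, 11.7, 11.4 and 11.8 FPKM at 1 month and at 12.1, 12.3, 12.2, 9.95 and 12.0 FPKM at 12 months. After silica it was at 11.5, 10.2, 11.2, 11.6 and 10.5 FPKM at 1 month and at 9.66, 9.98, 11.3, 9.28 and 8.99 FPKM at 12 months. At 12 months 4 of 5 air libraries lay above every silica library, the fourth air library being the exception. At 3 months the groups did not overlap, with air at 11.4, 11.8, 12.9, 13.2 and 11.8 FPKM and silica at 10.9, 11.02, 10.1, 10.4 and 9.71 FPKM. The calls were at 3 months (-0.22), 6 months (-0.16), 12 months (-0.24) and 18 months (-0.19). The difference was -0.09 at 1 month (adjusted p = 0.416) and -0.16 at 9 months (adjusted p = 0.0619). The difference at 9 months was called with both scalings (adjusted p = 0.0201 with centring and 0.00387 with quantile normalization). Without silica replicate 3 the difference at 12 months was -0.29. It was below zero at each of the 6 times.

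Zfp180 was lowest relative to air at 9 and 12 months. At 9 months it was at 6.75, 5.87, 5.98 and 6.17 FPKM in air and at 4.99, 5.44, 4.69, 4.71 and 4.65 FPKM after silica. At 12 months it was at 6.46, 6.96, 6.09, 6.30 and 6.25 FPKM in air and at 4.86, 5.84, 5.95, 4.48 and 4.63 FPKM after silica. The groups did not overlap at either time. The differences were -0.31 ± 0.070 (SE, adjusted p = 0.000536) and -0.30 ± 0.066 (adjusted p = 0.000756). Silica replicate 3, at 5.95 FPKM, was the highest of its group at 12 months, and without it the difference was -0.35. At 6 months it fell by 0.20 (adjusted p = 0.0167), a call lost without air replicate 3 (adjusted p = 0.0522). At 1, 3 and 18 months the differences were -0.08, -0.09 and -0.08, none of them called. That at 3 months was called with median centring (-0.18, adjusted p = 0.0452) and quantile normalization (-0.20, adjusted p = 0.0210).

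Zfp61, another KRAB gene, was called at 12 months. Air libraries were then at 5.09, 5.52, 5.69, 5.03 and 5.04 FPKM and silica libraries at 3.50, 4.14, 4.49, 3.97 and 4.16 FPKM. Every silica library lay below every air library, and the difference was -0.34 ± 0.085 (SE, adjusted p = 0.00216), and -0.38 without silica replicate 3. At 9 months it was -0.21 (adjusted p = 0.0717), which was called with median centring (adjusted p = 0.0216) and with quantile normalization (adjusted p = 0.0219). At 6 months it was -0.14 (adjusted p = 0.209), called with quantile normalization alone (adjusted p = 0.0304). At 3 months it was -0.04 and the groups overlapped widely.

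Zfp566 and Zfp945 showed the largest mean falls, at low levels (means of 1.95 and 1.76 FPKM over all libraries). At 9 months Zfp566 was at 2.005, 2.57, 2.51 and 2.12 FPKM in air and 1.38, 1.66, 1.88, 1.54 and 1.81 FPKM after silica, without overlap. Zfp945 at 9 months was at 1.80, 1.92, 1.86 and 2.24 FPKM in air and 1.47, 1.65, 1.41, 1.63 and 1.55 FPKM after silica, again without overlap. Both calls at 9 months had an adjusted p of 0.0385. Leaving out 1 of the 9 libraries kept the Zfp566 difference between -0.43 and -0.33, and its call was lost in 5 cases, with an adjusted p up to 0.103. The Zfp945 difference stayed between -0.29 and -0.21, and its call was lost in 6 cases, with an adjusted p up to 0.151. With median centring Zfp945 was also called at 1, 3 and 18 months (-0.34, -0.30 and -0.31) and Zfp566 at 12 months (-0.38), and the same calls were made with quantile normalization. Both genes were below zero at all 6 times.

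**Figure D2:**
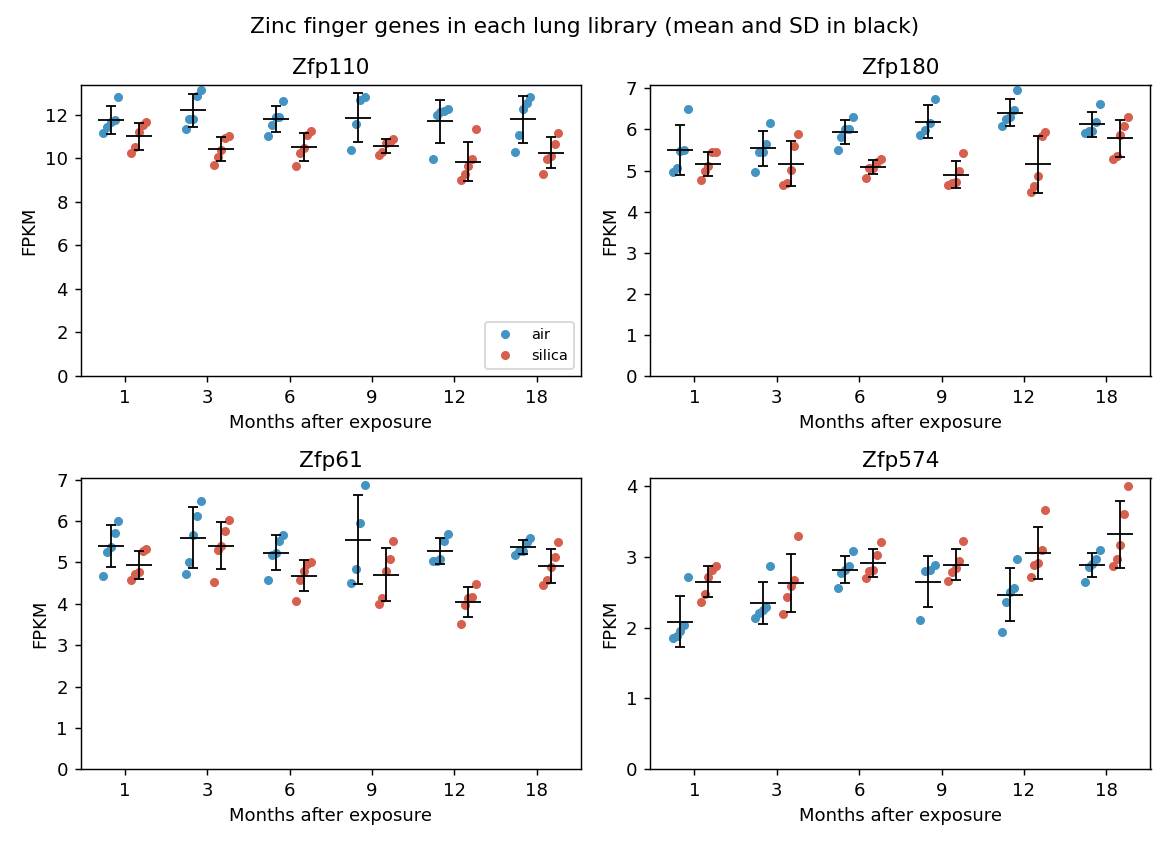
FPKM (y axis, from 0) of 4 zinc finger genes in each library at 1 to 18 months after exposure (x axis) in air and silica, with the mean and SD of each group in black. Zfp110, Zfp180 and Zfp61 lie lower after silica, Zfp61 at 12 months without overlap, and Zfp574 lies higher at 1 and 12 months.

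Zfp874b showed the largest difference of all members, and upwards. In air its level was 1.07, 1.13, 1.04, 1.05 and 1.301 FPKM at 1 month, 0.933, 1.19, 1.32, 1.28 and 1.38 FPKM at 6 months and 1.16, 1.12, 1.22 and 1.16 FPKM at 9 months. It was 0.850, 1.35, 1.02, 0.800 and 0.979 FPKM in air at 12 months. After silica it was at 1.27, 0.982, 1.34, 0.799 and 1.26 FPKM at 1 month, 1.41, 1.90, 1.55, 2.16 and 1.83 FPKM at 6 months and 1.87, 1.73, 2.41, 1.37 and 1.61 FPKM at 9 months. At 12 months the silica libraries were at 1.71, 2.23, 1.69, 2.04 and 1.72 FPKM. Silica and air overlapped at 1 month and were apart at 6, 9 and 12 months.

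On the log2 scale the Zfp874b difference was 0.00 at 1 month (95% interval -0.24 to 0.24) and 0.25 at 3 months (adjusted p = 0.138). It was 0.40 at 6 months (adjusted p = 0.00907), 0.45 at 9 months (adjusted p = 0.00469), 0.67 at 12 months (adjusted p = 4.47e-05) and 0.44 at 18 months (adjusted p = 0.00774). At 18 months the groups overlapped, with air at 1.05, 1.11, 0.843, 0.789 and 1.15 FPKM and silica at 1.41, 1.96, 1.89, 1.36 and 1.08 FPKM. The mean over times was 0.37 ± 0.049 (SE, adjusted p = 7.32e-09), and it remained called without any 1 of the 59 libraries. That the differences vary between the times was not shown by limma's F test (adjusted p = 0.167). When only the 2 groups at 12 months entered the fit, the adjusted p was 0.0637. Without silica replicate 3 the difference at 12 months was 0.70.

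The identity of this entry is uncertain. In RefSeq the name Zfp874b is the symbol of one gene and an older name of its neighbour Zfp972, and the table has a further entry, RGD1566325, which is an older name of the current Zfp874b. RGD1566325 stood at a mean of 1.18 FPKM and its mean difference was -0.06 (adjusted p = 0.0701). Reads of such similar genes can be divided differently by a counter, and the part of this in the difference was not tested.

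**Figure D3:**
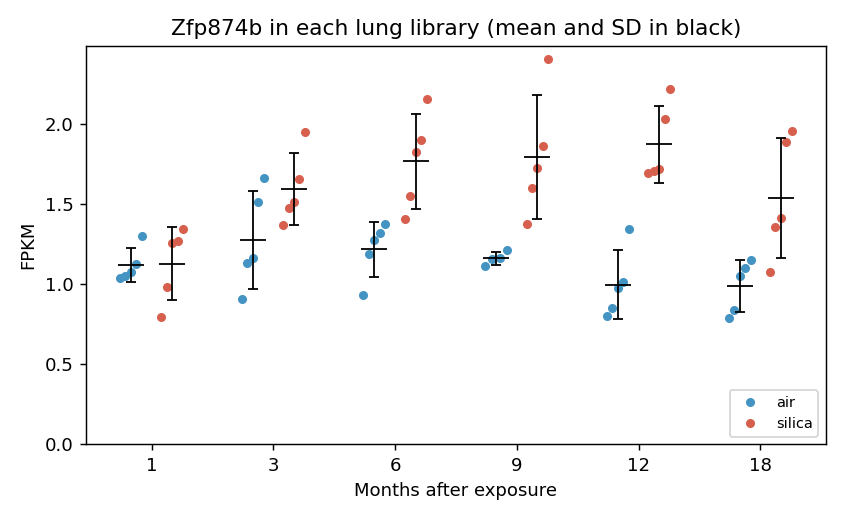
FPKM of Zfp874b (y axis, from 0) in each library of air and silica at 1 to 18 months after exposure (x axis), with group means and SD in black. Silica libraries overlap air at 1, 3 and 18 months and lie above every air library at 6, 9 and 12 months.

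The other 3 genes that were higher in the mean over times lack a KRAB domain. Zfp574 rose by 0.17 ± 0.037 on the log2 scale (SE, adjusted p = 0.000113). At 1 month it was at 1.96, 1.85, 2.04, 1.87 and 2.71 FPKM in air and 2.86, 2.48, 2.72, 2.36 and 2.81 FPKM after silica, where only the fifth air library reached the silica range. At 12 months it was at 2.97, 2.37, 2.50, 2.55 and 1.93 FPKM in air and 2.90, 2.88, 2.72, 3.66 and 3.09 FPKM after silica. It was called at these 2 times, with differences of 0.29 and 0.26. The call at 1 month was lost with median centring (0.20, adjusted p = 0.170) and quantile normalization (0.24, adjusted p = 0.0901). At 12 months it remained called with both, and the difference was 0.30 without silica replicate 3.

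Zfp710 rose by 0.13 ± 0.027 (SE, adjusted p = 5.66e-05) and was called at 1 month (0.20) and 3 months (0.19). At 3 months it was at 6.09, 5.95, 6.11, 6.03 and 6.74 FPKM in air and 7.28, 7.42, 7.52, 7.20 and 6.24 FPKM after silica, so that replicate 5 of each group lay in the other's range. Both calls at single times were lost with scaling, the differences being 0.11 (adjusted p = 0.328) and 0.10 (adjusted p = 0.259) with median centring, and 0.10 (adjusted p = 0.317) and 0.08 (adjusted p = 0.316) with quantile normalization. The mean over times remained called (0.07 and 0.06). Zfp787 rose by 0.09 ± 0.035 (adjusted p = 0.0251). Its call was lost with median centring (adjusted p = 0.476) and with quantile normalization (adjusted p = 0.426). It was also lost when the groups at 1 month or at 3 months were left out of the mean (adjusted p = 0.0950 and 0.0781).

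Taken by time, few members were called. At 1 month 3 members were called, 2 higher and 1 lower, against 8.84% of all tested genes, of which 8.45% were higher and 0.391% lower. The fall was that of Zfp324 (-0.20), which was at 2.67, 2.45, 2.48, 2.50 and 2.56 FPKM in air and 2.04, 2.35, 2.26, 2.01 and 2.04 FPKM after silica. That call was lost without any 1 of 8 of the 10 libraries (adjusted p up to 0.0993). At 3 months 4 were called, 2 higher and 2 lower, against 18.2% of all genes, 15.9% higher and 2.35% lower. At 6 months the count was 5, 1 higher and 4 lower, where 27.6% of all genes were called, 21.2% higher and 6.42% lower. At 9 months 9 were called, 3 higher and 6 lower, against 30.8% of all genes, 19.5% higher and 11.3% lower. The rises at 9 months were those of Zfp874b, Zfp52 (0.27) and Zfp53 (0.21, not called with either scaling, adjusted p = 0.131 and 0.180), and the falls included Zfp382 (-0.38), Zfp329 (-0.26) and Znf48 (-0.28).

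At 12 months 6 were called, 2 higher and 4 lower, against 23.6% of all genes, 14.6% higher and 9.08% lower. Without the library labelled silica replicate 3, 10 were called at 12 months, 2 higher and 8 lower, beside 35.8% of all genes, while the mean over times still gave 4 higher and 19 lower. At 18 months 5 were called, 1 higher and 4 lower, against 15.3% of all genes, 11.8% higher and 3.52% lower. The falls at 18 months included Znf471 (-0.33) and Zfp667 (-0.30). Scaling moved these splits, for all tested genes as for the members. With median centring no member was higher and 3 were lower for 1 month, beside 38 higher and 27 lower of all genes. For 3 months it was none and 6 (all genes 112 and 121), for 6 months 1 and 6 (205 and 143), for 9 months 2 and 10 (221 and 187), for 12 months 2 and 12 (169 and 186), and for 18 months 1 and 8 (112 and 109). Quantile normalization left no rise beside 3 falls for 1 month, where all genes had 47 rises and 30 falls. For 3 months it left none and 6 (all genes 106 and 132), for 6 months 1 and 7 (170 and 195), for 9 months 2 and 11 (185 and 219), for 12 months 2 and 6 (147 and 192), and for 18 months 1 and 8 (103 and 94).

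Silica and air values did not overlap in 5 members at 1 month (8.84% of all tested genes), 1 at 3 months (12.7%), 2 at 6 months (25.2%), 5 at 9 months (24.6%), 3 at 12 months (3.36%) and 0 at 18 months (11.1%). Without the library labelled silica replicate 3 the count at 12 months was 4, beside 22% of all genes. Over the 6 times, 28 members were called at no time (58.3%, against 49.5% of all tested genes), 13 at 1 time (27.1% against 20.7%) and 7 at 2 or more (14.6% against 29.8%). In 10 members the difference was below zero at all 6 times (20.8%, against 10.3% of all tested genes). In 3 it was above zero at all 6 (6.25% against 29.2%), namely Zfp874b, Zfp574 and Zfp710. With scaling each of these 3 turned below zero at 1 time, Zfp874b at 1 month (-0.09 and -0.07) and Zfp574 at 6 months (-0.02 and -0.01) with both scalings, and Zfp710 at 12 months (-0.02) with quantile normalization. By limma's F test no member differed between times beyond the threshold, and 17 of all tested genes were called (1.33%). At an unadjusted p under 0.05 in that test, 6 of the 48 members differed between times, beside 211 of all 1278 tested genes.

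**Figure D4:**
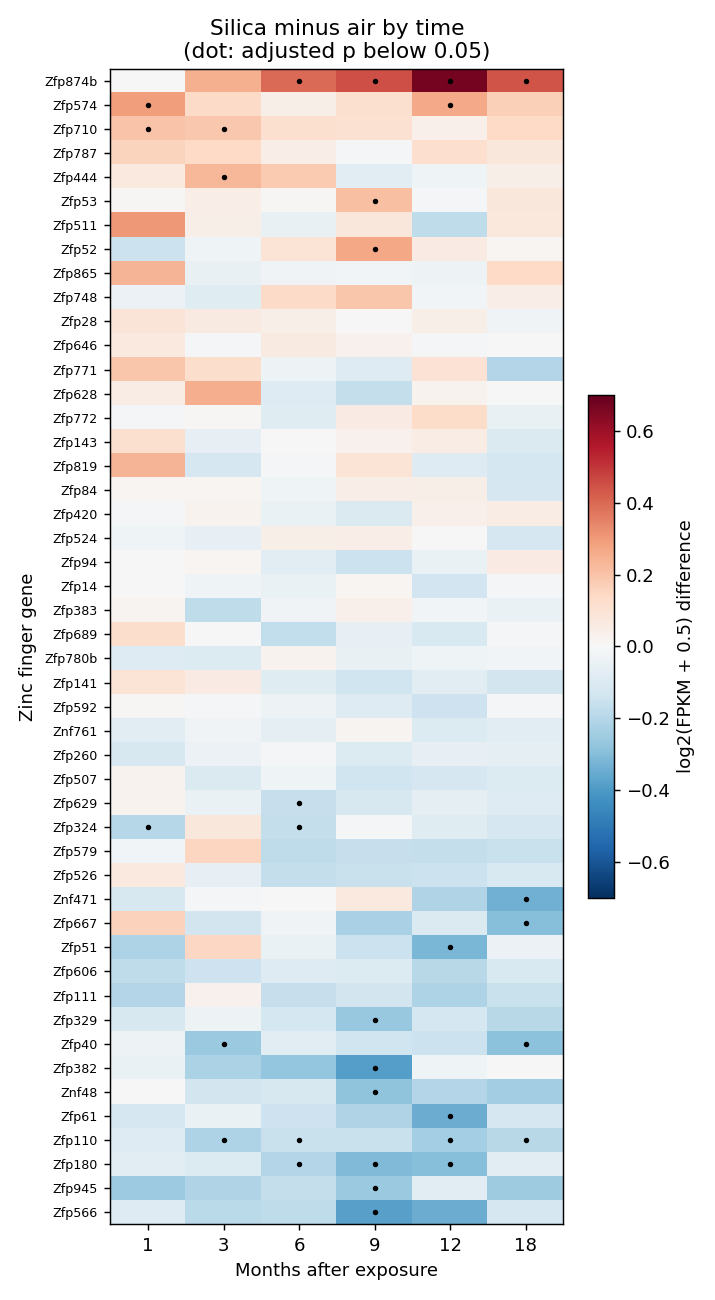
Difference between silica and air on the log2(FPKM + 0.5) scale (colour, red for higher after silica) for each of the 48 zinc finger genes (rows, ordered by the mean over times) at 1 to 18 months (columns), with dots at adjusted p below 0.05. The top row, Zfp874b, carries 4 dots from 6 to 18 months, and Zfp110 near the bottom carries 4.

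Genes that work with the members, or are built like them, were examined from lists made with earlier results of these data known. Of 36 co-repressor and heterochromatin genes, 4 were in the table, and none was called for silica in the mean over times. Trim28, the co-repressor that KRAB domains bind, stood at 12.3 FPKM with a mean difference of -0.04 ± 0.028 (SE, adjusted p = 0.183). Other C2H2 genes of the table numbered 14, of which 8 passed the level rule: Maz was higher (0.12), and Mzf1 (-0.18), Plagl1 (-0.21) and Zbtb2 (-0.10) were lower. Of all tested genes 57.6% were called in that mean, 37.5% higher and 20.1% lower. Zfp143, the member whose binding letters were searched for, differed by 0.01 ± 0.042 (95% interval -0.08 to 0.09). Zfp36, which encodes an RNA-binding protein and is no member, differed by -0.01 (adjusted p = 0.900). Trim28 and the other genes here that are not members were examined without scaling only, so whether scaling moves their calls is unknown.

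Ageing was examined in air lungs at 18 months against 1 month. The rats of these groups differ in age and in their time of collection, and the labels name no batch. Age cannot be told apart from any difference in collection or library making. Of the members 9 were called, 7 higher and 2 lower, against 21.8% of all tested genes, 17.4% higher and 4.46% lower. The split depends on the scaling and turned to 1 higher and 7 lower with median centring, and to 3 and 6 with quantile normalization. All tested genes gave 222 higher and 57 lower, 122 and 165 with centring, and 141 and 150 with quantile normalization. Over all tested genes the median was 0.05, and -0.04 and -0.02 with those scalings. Zfp579 was at 1.95, 1.66, 2.05, 1.67 and 1.98 FPKM at 1 month and 3.20, 2.48, 2.72, 2.18 and 3.07 FPKM at 18 months. Every old library lay above every young one, and the difference was 0.45 (adjusted p = 0.0131, and 0.0574 with median centring). Of all tested genes 13.1% did not overlap, and 2 members did not, Zfp579 and Zfp52.

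Zfp574 rose from 2.08 ± 0.355 FPKM (SD, n = 5) at 1 month to 2.89 ± 0.169 (SD, n = 5) at 18 months, a difference of 0.40 (adjusted p = 0.000954 by limma, and 0.00837 with median centring). The calls of Zfp819 (0.33) and Zfp524 (0.32) were lost with both scalings. They were also lost without any 1 of 7 of the 10 libraries for Zfp819, and of 6 for Zfp524. Of the falls, Zfp748 (-0.24) was lost without any 1 of 7 libraries and Zfp260 (-0.18) without any 1 of 3; both remained called with both scalings. The other called rises were Znf48 (0.31), Zfp667 (0.26) and Zfp592 (0.16). With median centring none of these was called (adjusted p = 0.0568, 0.199 and 0.421), and with quantile normalization Znf48 alone was (adjusted p = 0.0492, 0.218 and 0.387).

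The age differences were also read by class. The KRAB genes had a median level of 1.94 FPKM, against 3.02 FPKM in the genes without the domain. Of all tested genes 38.3% were below zero. Of the 27 KRAB genes 21 were below zero, with a median of -0.08, and 2 were called higher (Zfp819 and Zfp667) and 1 lower. Of the 18 genes without the domain 1 was below zero, Zfp260, with a median of 0.17, and 5 were called higher and 1 lower. With median centring the medians were -0.16 and 0.08, and 23 and 3 genes lay below zero, beside 718 of all 1278 tested genes. Quantile normalization gave -0.16 and 0.08, with 23 and 2 below zero, beside 682 of all 1278. Suv420h2, a histone methyltransferase of heterochromatin, was higher at 18 months (0.57), the deacetylase Sirt2 was lower (-0.27), and Zfp36 was higher (0.84). Suv420h2, Sirt2 and Zfp36 were examined without scaling only. No test of the difference between the classes was made, and the class of a gene was assigned after its values had been seen.

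**Figure D5:**
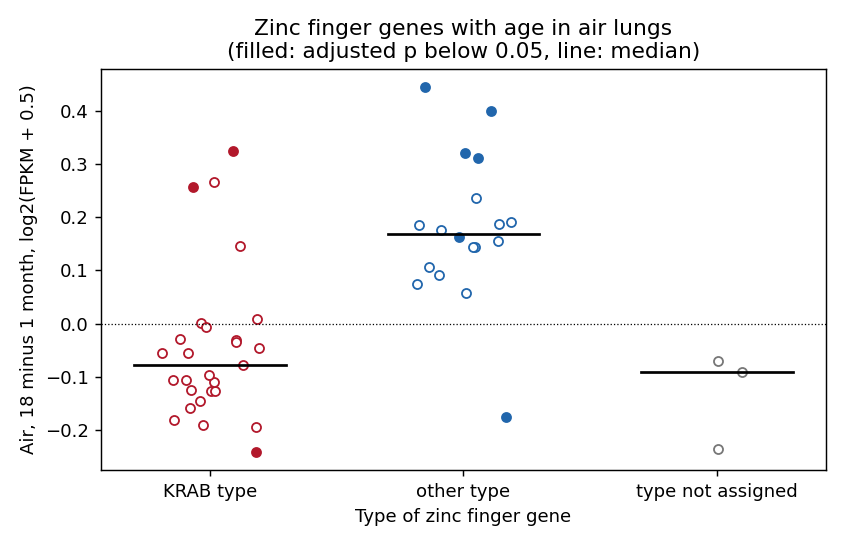
Difference between air lungs at 18 and 1 months on the log2(FPKM + 0.5) scale (y axis) for each zinc finger gene, by type of gene (x axis), with the median as a line and filled points at adjusted p below 0.05. The KRAB genes centre on -0.08 and the other type on 0.17, where Zfp260 alone lies below zero (3 genes do with median centring and 2 with quantile normalization).

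Summed over the 48 members, the level moved little. At 1 month it was 130 to 144 FPKM in air and 131 to 141 FPKM after silica. At 9 months air libraries summed to 134 to 143 FPKM and silica libraries to 129 to 134 FPKM. At 12 months the ranges were 134 to 145 in air and 126 to 138 after silica. Outside the members, the genes whose levels followed the members' mean most closely over the 59 libraries were Numa1 (Pearson r = 0.775), Utrn (0.760) and Syne1-2 (0.719). These correlations are a description, over libraries that share their depth and scaling.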

How the data were processed

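RNA came from a piece of lung of each of 59 rats and was made into libraries with a stranded total RNA kit after ribosomal RNA depletion, per the labels' protocols. The authors deposited FPKM. Cufflinks 2.1.1, TopHat2 2.0.9, Bowtie2 2.2.9, Trimmomatic 0.35 and bcl2fastq 2.19 were used in an order not given, per the submitters' processing notes; build and annotation are not given in the sources used here. Of 2888 entries the last was incomplete (31 of 59 values) and left out, and nearly all entries that RefSeq could place lay on chromosome 1. Genes with 1 FPKM in at least 4 libraries (1278) were tested on log2(FPKM + 0.5) with R 4.3.3 and its package limma 3.58.1, with 12 groups in 1 fit, an intensity trend, and adjustment over all tested genes. The script was tested on simulated data. The labels name no batch. Replicate numbers follow accession order, and each library is 1 rat. The counting error behind an FPKM value is unknown.

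The text names called members by size of change: in the mean over times up to 6 rises (4 were called) and the 10 largest falls, at each time up to 3 of each without overlap, with age up to 4 of each (2 falls were called), and for levels the 3 highest and 3 lowest; others named were chosen after their values were seen. Members, lists and classes were chosen with earlier results of these data known. Figures were drawn with matplotlib 3.10.9 in Python 3.11.15.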

Additional observations from a re-analysis of the deposited data

Results flagged for a closer look

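In 12 of 180 groups examined (the summed level of the members and the 14 genes named in the mean over times, by group), 1 library lay far from the others of its group. Chance flags about 1 in 20 such groups. The summed level was 123 FPKM in silica at 3 months, replicate 5, against 136 to 140 in the other libraries, and 144 FPKM in air at 18 months, replicate 4, against 139 to 140. In silica at 3 months, replicate 5, the median of all tested genes was also low, at 2.17 against 2.26 to 2.30 on the log2 scale. The entry LOC102553223 stood at 17114 FPKM there. The part of this in its flags was not tested. Zfp574 stood at 2.71 FPKM in air at 1 month, replicate 5 (others 1.85 to 2.04), at 2.87 FPKM in air at 3 months, replicate 5 (others 2.14 to 2.29), and at 2.11 FPKM in air at 9 months, replicate 1 (others 2.80 to 2.88). Zfp710 stood at 6.70 FPKM in silica at 1 month, replicate 2 (others 7.59 to 7.83), at 6.24 FPKM in silica at 3 months, replicate 5 (others 7.20 to 7.52), and at 6.74 FPKM in air at 3 months, replicate 5 (others 5.95 to 6.11). Zfp787 was at 3.04 FPKM in silica at 1 month, replicate 2 (others 3.57 to 3.76). Zfp945 was at 2.43 FPKM in air at 1 month, replicate 3 (others 1.98 to 2.11), and at 2.03 FPKM in silica at 6 months, replicate 4 (others 1.53 to 1.67). Zfp110 was at 9.95 FPKM in air at 12 months, replicate 4 (others 12.0 to 12.3).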

How the results depend on the processing

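The 23 members called in the mean over times stayed within 20 to 30 under every alternative run, and within 21 to 24 without any 1 library. Counts at single times moved more. Without any 1 library they ranged from 0 to 3 at 1 month, 1 to 5 at 3 months, 1 to 5 at 6 months, 5 to 8 at 9 months, 4 to 10 at 12 months (10 without silica replicate 3, whose array weight was 0.163), 2 to 7 at 18 months, 3 to 10 with age and 0 to 1 for the F test (1 without silica at 9 months, replicate 2). With a pseudocount of 0.1, 3 were called at 6 months. Without a filter on low values, where more genes share the adjustment, 0 were called at 1 month, 2 at 3 months, 2 at 6 months and 4 with age. Median centring gave 14 at 12 months and 9 at 18 months, and quantile normalization 8 at 6 months and 9 at 18 months. Array weights gave 5 at 1 month, 9 at 6 months, 11 at 12 months, 15 with age and 1 for the F test. With only the 2 groups compared in the fit, and so fewer samples, 1 was called at 3 months, 5 at 9 months, 0 at 12 months and 0 at 18 months. Calls over all tested genes were counted only for the main run, the scalings and without silica at 12 months, replicate 3. In the other runs the member counts therefore cannot be set against that share. The causes of these changes in count were not tested. Of 347 values of named members under alternatives other than leaving out 1 library, 325 kept direction and call, 22 kept the direction alone, and none reversed.

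No paired analysis was possible because the replicate numbers follow accession order and pair no rats. The number of reads behind the values of members near 1 FPKM is unknown.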
